A study of Homo sapiens with 4 samples.

Results

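The sequence next to the centromeres is described here, taken as the first 3 Mb on each side of the centromere of chromosomes 1 to 22. H3K9me2, dimethylation of lysine 9 on histone H3, was mapped there by CUT&RUN in K562 cells, an established human myeloid leukemia line. CUT&RUN uses an antibody to tether a nuclease to marked nucleosomes and sequences the DNA that is released. The tested cells carried a CRISPR guide against CUX1, a homeodomain transcription factor (2 libraries, labelled knock-out). The reference cells carried a guide against HPRT (2 libraries, labelled control), so no library comes from cells without a guide. Replicates carry numbers in the labels, with no word on whether the cells were clones or came from separate cultures. Every test therefore measures library-to-library spread, which may be technical. K562 cells carry a rearranged genome with gains and losses of chromosome parts, which the peak lists do not correct for.

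For each chromosome, the peaks of the 4 libraries were merged and the longest stretch without any peak, at least 2 Mb long, was taken as the centromere gap. On 17 chromosomes the gap lay between peaks and was 3.13 to 24.1 Mb long (median 3.45 Mb), which gave a short-arm and a long-arm side. On chromosomes 13, 14, 15, 21 and 22 the longest stretch ran from the start of the chromosome to the first peak, 9.41 to 20.3 Mb, so these had 1 side. The result was 39 sides, 17 on short arms and 22 on long arms, with 117 Mb of flank. The side of chromosome 21 is counted with the long arms, though its flank holds short-arm sequence. A peak was a member when its midpoint lay in a flank. In all, 34237 of the 1000000 listed peaks were members, or 3.42%. The knockout libraries held 8669 and 8595 of them, and the control libraries 8374 and 8599. The gap ends were chosen from these same peaks, so the fall in coverage at a gap end is a description. The choice pooled all 4 libraries and did not use the difference between knockout and control.

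Human centromeres are built on alpha-satellite repeats, and the sequence around them is known as constitutive heterochromatin. There the trimethyl form of the mark, bound by HP1 proteins, is the classical one. H3K9me2 is laid down mainly by the methyltransferases G9a and GLP, and it is known for broad blocks in silent, gene-poor chromatin, often at the nuclear lamina. The repeats themselves are largely missing from the hg19 assembly, so the flanks hold the unique and duplicated sequence beside them.

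Each list held 250000 peaks, and most of its peaks were weak, with a median −log10 p of 1.45 to 1.67 in the flanks. The weakest peak on each list had a −log10 p of 1.49 and 1.35 in the knockouts and 1.25 and 1.27 in the controls, and the smallest peak was 263 and 339 bp wide in the knockouts and 362 and 369 bp in the controls. These differences move with every comparison of coverage or width between the groups, and their part in it cannot be told apart from that of the guide. Depth is unknown, since the sources used here give no read numbers. The peak names of control replicate 1 alone carry the tag "sub54", which the labels do not explain, and whether that library was processed differently was not tested.

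H3K9me2 peaks covered less of the flanks than of the chromosome arms farther out, in all 4 libraries. Peaks covered 12.3% and 16.8% of the flanks in the knockouts, and 20.0% and 20.1% in the controls. At 5 to 15 Mb from the gap on the same sides they covered 15.04% and 19.8% in the knockouts and 23.8% and 23.1% in the controls. Flank over outer coverage was thus 0.819 and 0.849 in the knockouts and 0.840 and 0.871 in the controls. Over the whole autosomes peaks covered 14.96% and 20.8% in the knockouts and 24.4% and 24.0% in the controls.

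Coverage was lowest in the first 1 Mb. In the first 250 kb from the gap, coverage was 0.701 and 0.777 times that of the outer region in the knockouts and 0.679 and 0.872 times in the controls. Between 0.75 and 1 Mb it was 0.720 and 0.769 times in the knockouts and 0.801 and 0.792 times in the controls. It then stepped up, and between 1 and 1.25 Mb it was 0.845 and 0.916 times in the knockouts and 0.899 and 0.913 times in the controls. From there to 3 Mb it lay between 0.823 and 0.969 times in every library. Just inside the 3-Mb limit, from 2.75 to 3 Mb, peaks covered 13.6% and 17.1% in the knockouts and 20.5% and 20.3% in the controls. Just outside it, from 3 to 3.25 Mb, they covered 14.2% and 18.1% in the knockouts and 22.2% and 20.6% in the controls. All 4 libraries were slightly lower inside the limit than outside it.

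**Figure D1:**
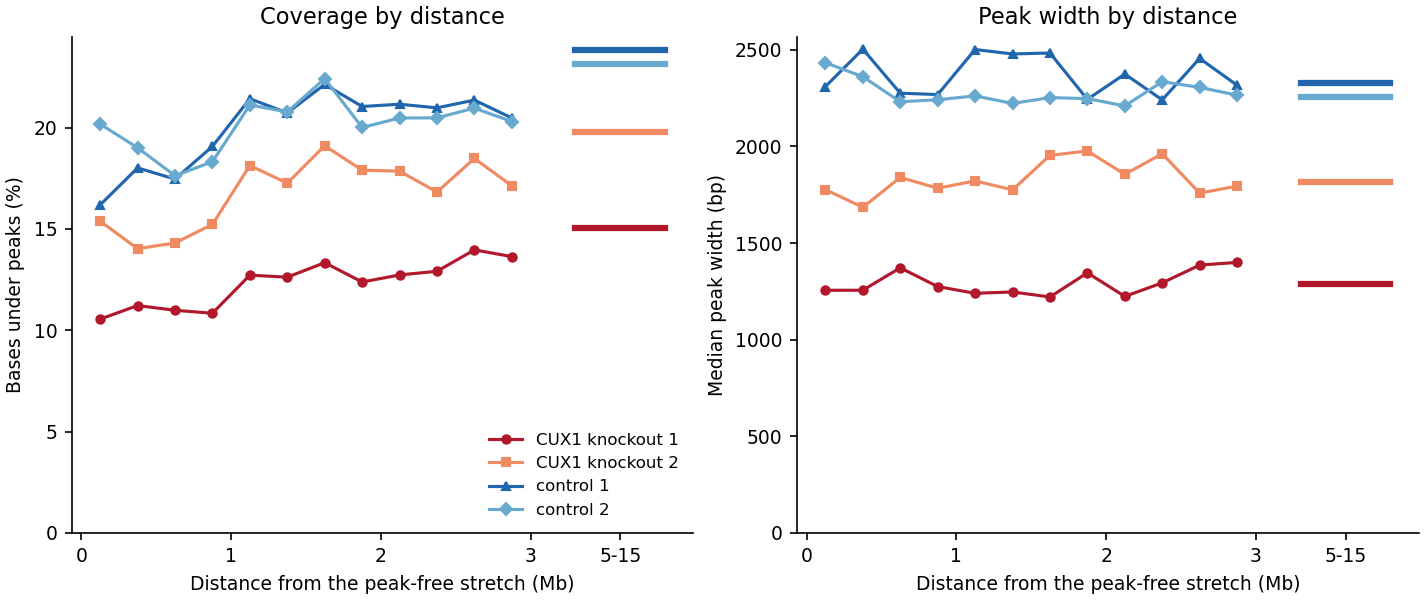
Percent of bases under peaks (left) and median peak width in bp (right) in 12 steps of 250 kb from the gap, summed over 39 sides, with 1 line per library and thick bars for the region 5 to 15 Mb away. Coverage is lower in the first 1 Mb than beyond it in all 4 libraries apart from the first step of control 2, at 20.2%, while width shows no trend with distance.

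Peak width did not follow the same course. The median width of flank peaks was 1291 and 1834 bp in the knockouts and 2377.5 and 2276 bp in the controls. In the outer region it was 1289.5 and 1815 bp in the knockouts and 2327 and 2255 bp in the controls. The ratio of flank to outer width was 1.00 and 1.01 in the knockouts and 1.02 and 1.01 in the controls. What differed between flank and outer region was the number of peaks. The flanks held 74.1 and 73.5 peaks per Mb in the knockouts and 71.6 and 73.5 in the controls, against 90.8 and 87.4 per Mb farther out in the knockouts and 86.1 and 86.0 in the controls. The peaks also had about the same strength in both places. The authors' median fold over local background was 1.95 and 1.78 in flank peaks of the knockouts and 1.77 and 1.72 in those of the controls, against 1.95 and 1.77 farther out in the knockouts and 1.77 and 1.72 farther out in the controls.

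Stretches of at least 50 kb with no peak in any library took up 19.6% of the flanks and 3.33% of the outer regions. Without an hg19 sequence at hand, unsequenced or duplicated stretches could not be told apart from stretches that lack the mark, and their part in the lower coverage was not tested. With these stretches left out of the length, flank over outer coverage was 0.985 and 1.02 in the knockouts and 1.01 and 1.05 in the controls. The stretches are defined by the absence of peaks, so leaving them out raises coverage by construction.

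The sides divided in the same way. In 14 of the 39 flanks there was no such stretch, and together these were covered 1.05 and 1.07 times as densely as their own outer regions in the knockouts and 1.06 and 1.09 times in the controls. Within the first 1 Mb of these 14 flanks the ratio was 1.10 in both knockouts, and 1.11 and 1.14 in the controls. The other 25 flanks had ratios of 0.662 and 0.693 in the knockouts and 0.692 and 0.721 in the controls. Within their first 1 Mb the ratio was 0.472 and 0.487 in the knockouts and 0.503 and 0.591 in the controls. Single flanks among the 14 went both ways. The geometric mean of the 4 library ratios, with 0.5 added to each percentage, ran from 0.790 to 1.71. The lowest was on the short arm of chromosome 10 and the highest on the long arm of chromosome 4. The 14 flanks were chosen by the peaks themselves, so these ratios carry no test.

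**Figure D2:**
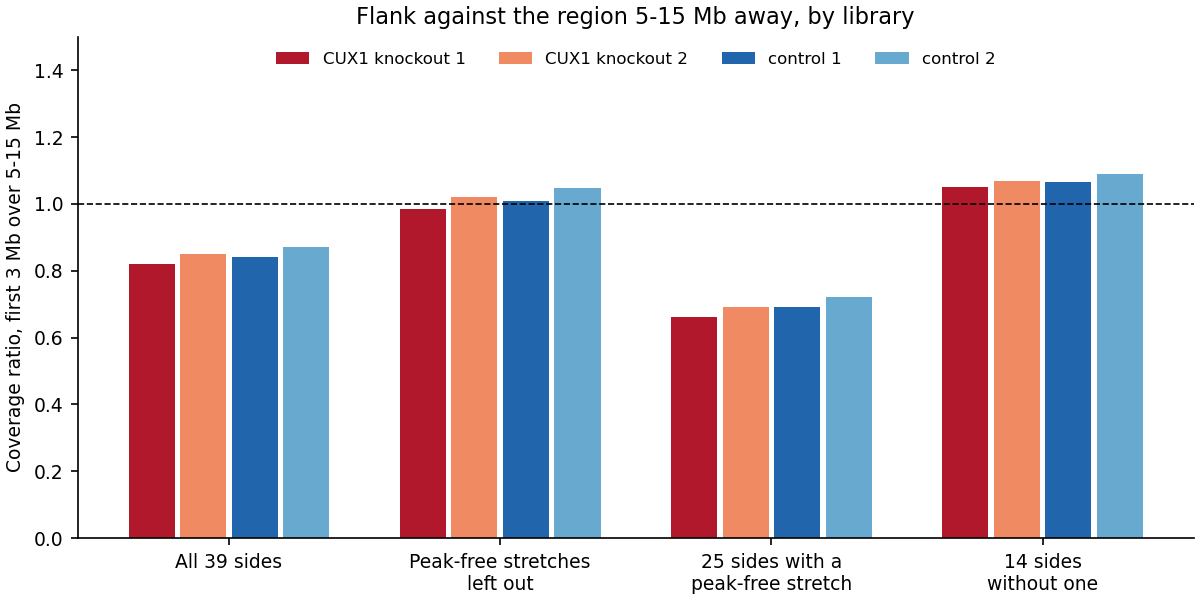
Coverage of the first 3 Mb divided by coverage 5 to 15 Mb away, 1 bar per library, for all 39 sides, for all sides with peak-free stretches of at least 50 kb left out, for the 25 sides with such a stretch in the flank and for the 14 without. The dashed line marks equal coverage, and the 14 unbroken sides lie above it in all 4 libraries, at 1.05 to 1.09.

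Single flanks ranged from almost bare to densely covered. The median flank had 13.4% and 17.2% under peaks in the knockouts and 22.1% and 24.4% in the controls. The 4 flanks with the highest mean coverage were those on the long arms of chromosomes 22, 18 and 10 and on the short arm of chromosome 5. The long-arm flank of chromosome 18 (18554098 to 21554097) had 20.9% and 30.5% in the knockouts and 36.3% and 33.8% in the controls. On the long arm of chromosome 10 (42489975 to 45489974) the values were 18.8% and 29.6% in the knockouts and 36.4% and 34.5% in the controls. On the short arm of chromosome 5 (43265268 to 46265267) they were 20.5% and 26.6% in the knockouts and 34.7% and 35.1% in the controls. In each of these 3 flanks, and in that of chromosome 22, both knockouts lay below both controls. The same held in 27 of the 39 flanks. It also held in 72.7% of all segments of 3 Mb tiled outward from the gaps, so nothing particular to these flanks is read from it.

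The flank on the long arm of chromosome 22 (16962137 to 19962136) stood apart from its own arm. Peaks covered 19.3% and 33.8% of it in the knockouts and 35.4% and 34.3% in the controls. Farther out on this arm they covered 9.26% and 12.03% in the knockouts and 14.2% and 11.3% in the controls. The flank was 2.08 and 2.81 times as dense in the knockouts and 2.49 and 3.04 times in the controls, the highest ratio of the 39 sides. Its peaks were also wider than those farther out in all 4 libraries, with medians of 1683 and 2431 bp in the knockouts and 2583 and 2718 bp in the controls, against 1133 and 1529 bp in the outer region of the knockouts and 2179 and 1730 bp in that of the controls. The regions compared do not show where along the arm the denser part ends. The peak lists are not corrected for copy number, and its part in these ratios was not tested. Within the flank, coverage was interrupted between 1.75 and 2 Mb from the gap. It was 4.40% and 4.92% there in the knockouts and 9.51% and 7.48% in the controls. In RefSeq's gene order on GRCh38, which was not matched to the hg19 positions of the peaks, the genes nearest the gap on this arm begin with OR11H1, an olfactory receptor gene, and POTEH, a member of a primate-specific duplicated family, followed by CCT8L2, XKR3, GAB4 and IL17RA, the receptor chain for interleukin 17A.

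Of the other high ratios, the long-arm flank of chromosome 4 (52683873 to 55683872) was 1.97 and 1.83 times as dense as its outer region in the knockouts and 1.76 and 1.44 times in the controls. Peaks covered 21.8% and 28.0% of it in the knockouts and 28.7% and 25.9% in the controls, so the groups overlapped. The long-arm flank of chromosome 14 (20304485 to 23304484) had ratios of 1.45 and 1.70 in the knockouts and 1.46 and 1.77 in the controls, with 14.7% and 12.5% covered in the knockouts and 15.5% and 11.8% in the controls. On the long arm of chromosome 17 (25341817 to 28341816) the ratios were 1.24 and 1.43 in the knockouts and 1.35 and 1.24 in the controls. In all, 8 of the 39 flanks were denser than their outer region in all 4 libraries, and 20 were less dense in all 4.

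The barest flanks were those of chromosome 9, where peaks covered 0.0699% and 0% of the long-arm flank (66329671 to 69329670) in the knockouts and 0.0141% and 0.0392% in the controls. This flank held 2 and 0 peaks in the knockouts and 1 in each control. On the short arm of chromosome 9 (41906945 to 44906944) coverage was 0.543% and 0.243% in the knockouts and 0.585% and 0.421% in the controls. Peak-free stretches of at least 50 kb took up 99.5% of the long-arm flank and 95.1% of the short-arm flank. RefSeq's gene order on GRCh38 lists copies of the same families on both sides of this centromere, among them SPATA31A, CNTNAP3 and FOXD4L genes, and reads from near-identical copies may not be placed with certainty.

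Long peak-free stretches also lay in the flanks of chromosomes 15 and 21. The flank of chromosome 15 (20172403 to 23172402) had 2.39% and 3.17% under peaks in the knockouts and 2.66% and 3.32% in the controls, and a second peak-free stretch of 2.17 Mb lay inside it. Its nearest genes in the GRCh38 order were of the POTE, GOLGA and olfactory receptor families. On chromosome 21 (9412083 to 12412082) the values were 4.56% and 5.76% in the knockouts and 7.30% and 7.01% in the controls. There the rule took the stretch from the chromosome start, so the flank holds short-arm sequence and runs into a second peak-free stretch of 3.37 Mb, from 11003166 to 14373963. The window next to its gap was not bare, with 11.4% and 17.1% under peaks in the knockouts and 21.3% and 22.1% in the controls. The long-arm flank of chromosome 3 (93526823 to 96526822) was sparse with few peak-free stretches. It had 4.24% and 3.03% under peaks in the knockouts and 5.53% and 3.81% in the controls, with only 4.07% of its length in peak-free stretches of at least 50 kb.

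**Figure D3:**
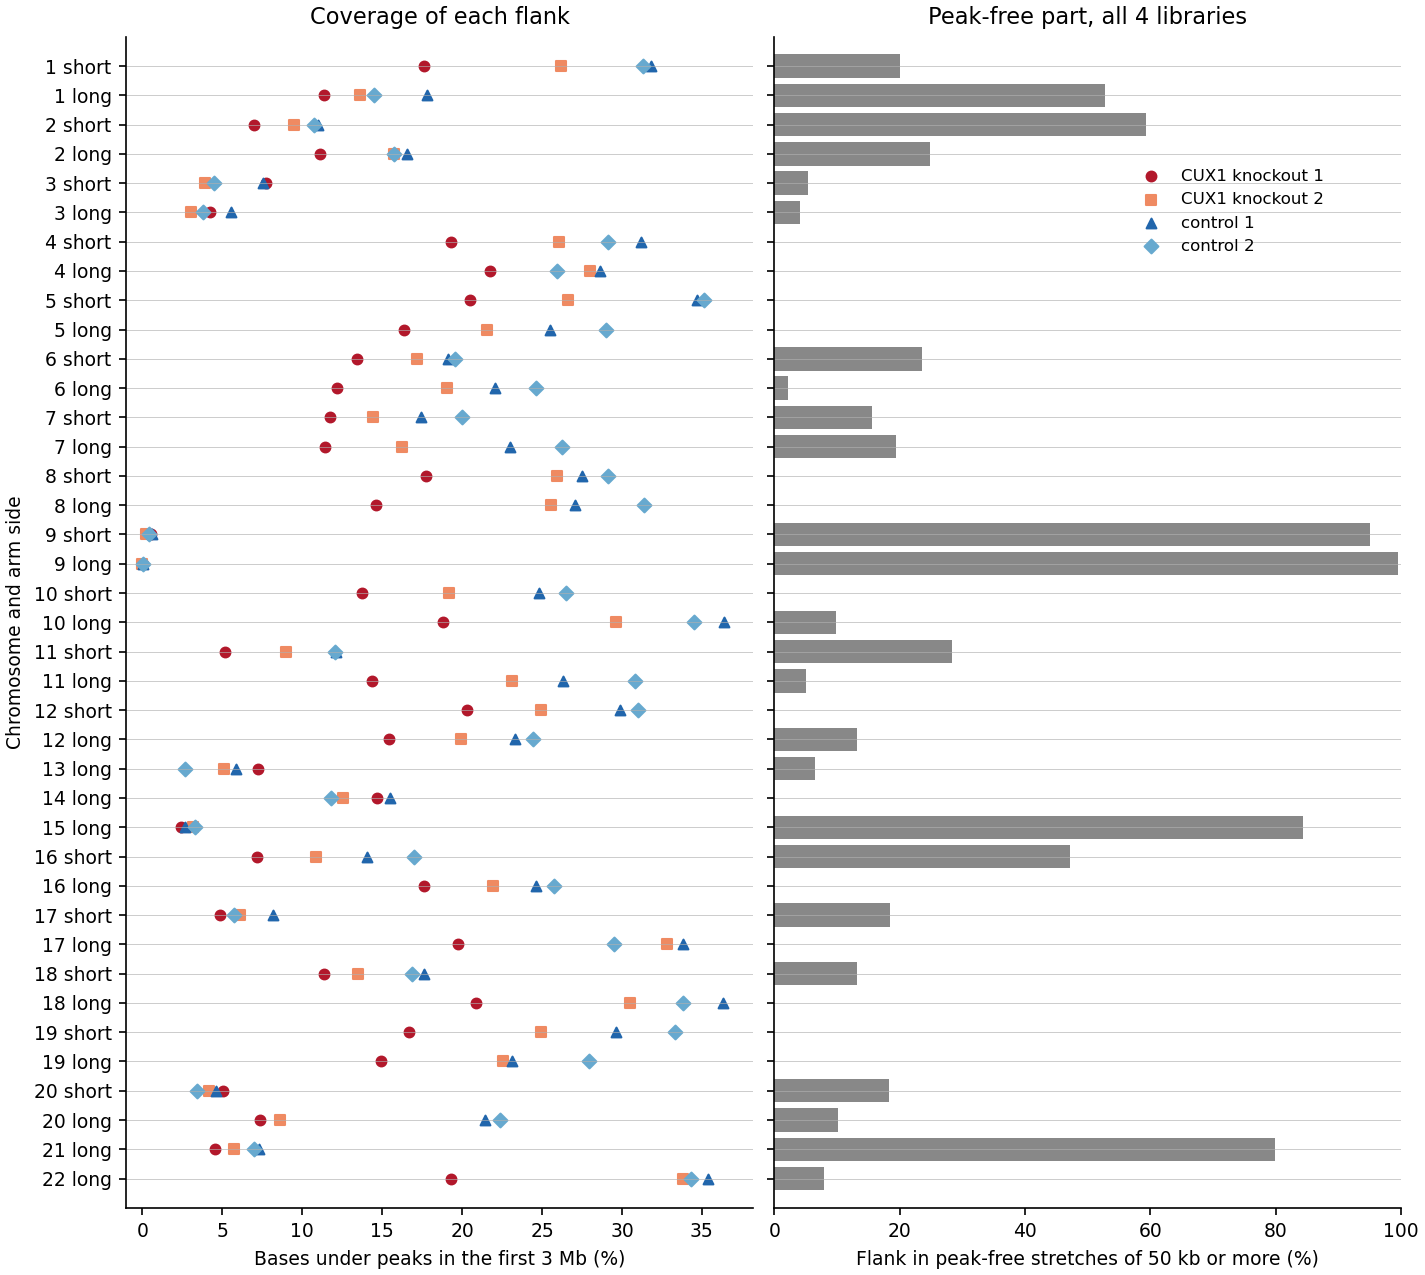
Percent of each 3-Mb flank under peaks, 1 symbol per library (left), and the percent of the flank in stretches of at least 50 kb without a peak in any library (right), for the 39 sides by chromosome and arm. The flanks of chromosome 9 lie near 0 with 95.1% and 99.5% of their length peak-free, and the long-arm flank of chromosome 22 has the highest mean coverage.

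The genes closest to a centromere differ between chromosomes, and 2 large families recur there. KRAB zinc finger genes encode DNA-binding repressors that recruit H3K9 methyltransferases, and their own clusters are known to carry H3K9 methylation. Olfactory receptor genes encode odorant sensors of the nasal epithelium and are largely silent in other tissues. In the GRCh38 gene order, zinc finger genes made up at least 4 of the 10 nearest named protein-coding genes on 4 sides, the short arms of chromosomes 10 and 19 and the long arms of chromosomes 7 and 10. Their flanks had a median coverage of 15.2% and 22.1% in the knockouts and 27.2% and 29.9% in the controls, against 14.7% and 20.7% in the knockouts and 24.0% and 25.2% in the controls for the 26 sides with none. Next to the short-arm side of chromosome 19 (21500419 to 24500418), where ZNF254, ZNF726, ZNF681, ZNF675 and ZNF91 lie closest, peaks covered 16.7% and 24.96% in the knockouts and 29.6% and 33.3% in the controls.

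Olfactory receptor genes made up at least 4 of the 10 on 4 sides, both arms of chromosome 11 and the long arms of chromosomes 14 and 15. Their flanks had a median coverage of 9.77% and 10.7% in the knockouts and 13.8% and 11.9% in the controls, against 12.8% and 18.1% in the knockouts and 22.5% and 24.5% in the controls for the 34 sides with none. At 5 to 15 Mb the median over the 4 sides was 14.4% and 19.6% in the knockouts and 21.5% and 21.1% in the controls. For the 34 sides it was 15.9% and 22.6% in the knockouts and 26.0% and 26.3% in the controls. Peak-free stretches of at least 50 kb took up 84.4% of the chromosome 15 flank and 0% of that of chromosome 14. On chromosome 11 they took up 28.3% of the short-arm flank and 5.12% of the long-arm flank. The 2 sides of chromosome 11 differed from each other. Its short-arm flank (48562232 to 51562231) had 5.17% and 8.96% under peaks in the knockouts and 12.1% in both controls. Its long-arm flank (54836433 to 57836432) had 14.4% and 23.1% in the knockouts and 26.3% and 30.8% in the controls. Sides of the same chromosome resembled each other only loosely. Over the 17 chromosomes with both sides, Pearson's r between short-arm and long-arm flank coverage was 0.486 and 0.469 in the knockouts and 0.424 and 0.493 in the controls, as a description of points that share a library and a chromosome.

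The comparison of knockout with control, which the title of the series puts as a reduction of H3K9me2, was then made within the flanks. In the lists as deposited, peaks covered 14.6% ± 3.17 of the flanks in the knockouts and 20.1% ± 0.0964 in the controls (SD, n = 2 each), a difference of -27.4%. Both knockouts lay below both controls (two-sided exact permutation test, p = 0.3333, which is the minimum for 2 libraries a group). Without knockout replicate 1 the difference was -3.27 points, against -5.51 points with all libraries. The outer regions differed by about as much, -25.8%, with 17.4% ± 3.36 in the knockouts and 23.5% ± 0.490 in the controls (SD, n = 2 each). The ratio of flank to outer coverage was 0.834 ± 0.0210 in the knockouts and 0.855 ± 0.0220 in the controls, with overlapping groups (exact permutation p = 0.667, n = 2 each). With 1 limit on −log10 p for all lists (1.49), peaks covered 11.2% ± 1.65 of the flanks in the knockouts and 8.73% ± 0.971 in the controls (SD, n = 2 each), so the direction of the difference in coverage followed the limit.

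Flank peaks were narrower in the knockouts, with a median of 1562.5 ± 384 bp against 2326.75 ± 71.8 bp in the controls (SD, n = 2 each, exact permutation p = 0.3333), a difference of -32.8%. The difference was -764.25 bp, and -492.75 bp without knockout replicate 1. Peaks of at least 5000 bp numbered 241 and 651 in the flanks of the knockouts and 1071 and 1072 in those of the controls. They made up 2.78% and 7.57% of flank peaks in the knockouts and 12.8% and 12.5% in the controls. The difference in width was similar away from the centromere, at -32.2%, and the ratio of flank to outer width was 1.01 ± 0.00658 in the knockouts and 1.02 ± 0.00876 in the controls (SD, n = 2 each, exact permutation p = 0.667). At equal covered length the width ratios did not overlap, with 1.00 and 1.01 in the knockouts and 1.02 and 1.03 in the controls (exact permutation p = 0.3333, n = 2 each). The flanks held 8632 ± 52.3 peaks in the knockouts and 8486.5 ± 159 in the controls (SD, n = 2 each), and since every list holds exactly 250000 peaks, these numbers are no measure of a difference between the groups.

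The serial numbers in the peak names give a count that reaches past the end of each list, if they number all peaks called. Whether they do is not stated in these sources. By this count the flanks held 129 and 110 peaks per Mb in the knockouts and 125 and 113 in the controls, so the groups overlapped. Flank over outer region was 0.810 and 0.822 in the knockouts and 0.821 and 0.832 in the controls by the same count.

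By side, coverage was lower in both knockouts than in both controls on 27 of the 39 flanks and higher on 0, with overlap on 12. Over all 874 segments of 3 Mb tiled outward from the gaps the shares were 72.7% lower and 0.343% higher. In windows of 250 kb, 407 of the 468 flank windows had a mean coverage of at least 1% and were tested. Both knockouts lay below both controls in 214 of them (52.6%), where the share over all 10518 autosomal windows was 51.4%. They lay above both controls in 13 (3.19%), against 3.19% of all windows. By these counts the flanks stood near the autosomal background.

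Coverage fell past the threshold in 5 of the 407 flank windows and rose in 0 (limma, Benjamini-Hochberg adjusted p under 0.05 over all 10518 windows). Of all windows, 1.08% fell and 0.0475% rose. At an unadjusted p under 0.05 (limma) the flank windows numbered 77 of 407, against 1801 of all 10518. Without knockout replicate 1 the median difference over tested flank windows was -3.19 points, and without knockout replicate 2 it was -9.51 points. Over all tested windows these were -3.06 and -10.2 points, so the difference and the number of calls rested on which knockout library entered. The number of calls was 0 with 1 limit on −log10 p or −log10 q, at equal covered length and after quantile normalization. Flank windows at an unadjusted p under 0.05 then numbered 43, 10, 37 and 33, against 1461, 364, 1072 and 931 over all windows tested. Windows tested were 390, 371, 396 and 407 in the flanks and 10345, 9895, 10442 and 10518 in all.

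Of the 5 windows, 3 were neighbours on the long arm of chromosome 20, between 1.75 and 2.5 Mb from the gap. From 31519749 to 31769748 peaks covered 8.06% and 3.77% in the knockouts and 28.9% and 26.1% in the controls (-21.6 points, SE 5.18, limma adjusted p = 0.00766). The next window outward, to 32019748, had 4.84% and 1.77% in the knockouts and 20.4% and 23.4% in the controls (-18.6 points, limma adjusted p = 0.00223). The window from 31269749 to 31519748 had 1.55% and 8.66% in the knockouts and 20.6% and 21.6% in the controls (-15.98 points, limma adjusted p = 0.0217). In these 3 windows every knockout value lay under 9% and every control value over 20%. Without knockout replicate 1 the differences were -23.7, -20.1 and -12.4 points and none of the 3 passed (limma adjusted p = 0.0687, 0.0769 and 0.357).

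The whole long-arm flank of chromosome 20 (29519749 to 32519748) had 7.34% and 8.58% under peaks in the knockouts and 21.4% and 22.4% in the controls. In the GRCh38 order its nearest genes are beta-defensins such as DEFB115 and DEFB119, which encode antimicrobial peptides. The lower coverage went on along this arm, with 7.27% and 7.998% in the knockouts and 26.9% and 26.6% in the controls at 5 to 15 Mb, so it was not particular to the flank. On the short arm the flank had 5.02% and 4.19% in the knockouts and 4.59% and 3.40% in the controls, with overlapping groups.

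The fourth window lay on the long arm of chromosome 7, 0.25 to 0.5 Mb from the gap (62371161 to 62621160), on a side whose 10 nearest named genes in the GRCh38 order are all zinc finger genes, among them ZNF722, ZNF727 and ZNF735. Peaks covered 7.23% and 14.7% of it in the knockouts and 24.2% and 38.96% in the controls (-20.6 points, SE 5.93, limma adjusted p = 0.0466). The call was lost without knockout replicate 1, control replicate 1 or control replicate 2, with differences of -16.8, -27.98 and -13.2 points (limma adjusted p = 0.214, 0.204 and 0.877). At 5 to 15 Mb on the long arm of chromosome 7 peaks covered 11.6% and 14.4% in the knockouts. In the controls they covered 24.5% and 24.8% there, so the lower coverage was not particular to the flank. The fifth was the window next to the gap on the short arm of chromosome 18 (14857702 to 15107701), near ANKRD30B and POTEC in that order. It had 2.48% and 3.18% in the knockouts and 7.97% and 17.01% in the controls (-9.66 points, SE 2.72, limma adjusted p = 0.0386). Without knockout replicate 1 or control replicate 2 it did not pass, at -9.31 and -5.14 points (limma adjusted p = 0.339 and 0.481), and without control replicate 1 the difference was -14.2 points.

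**Figure D4:**
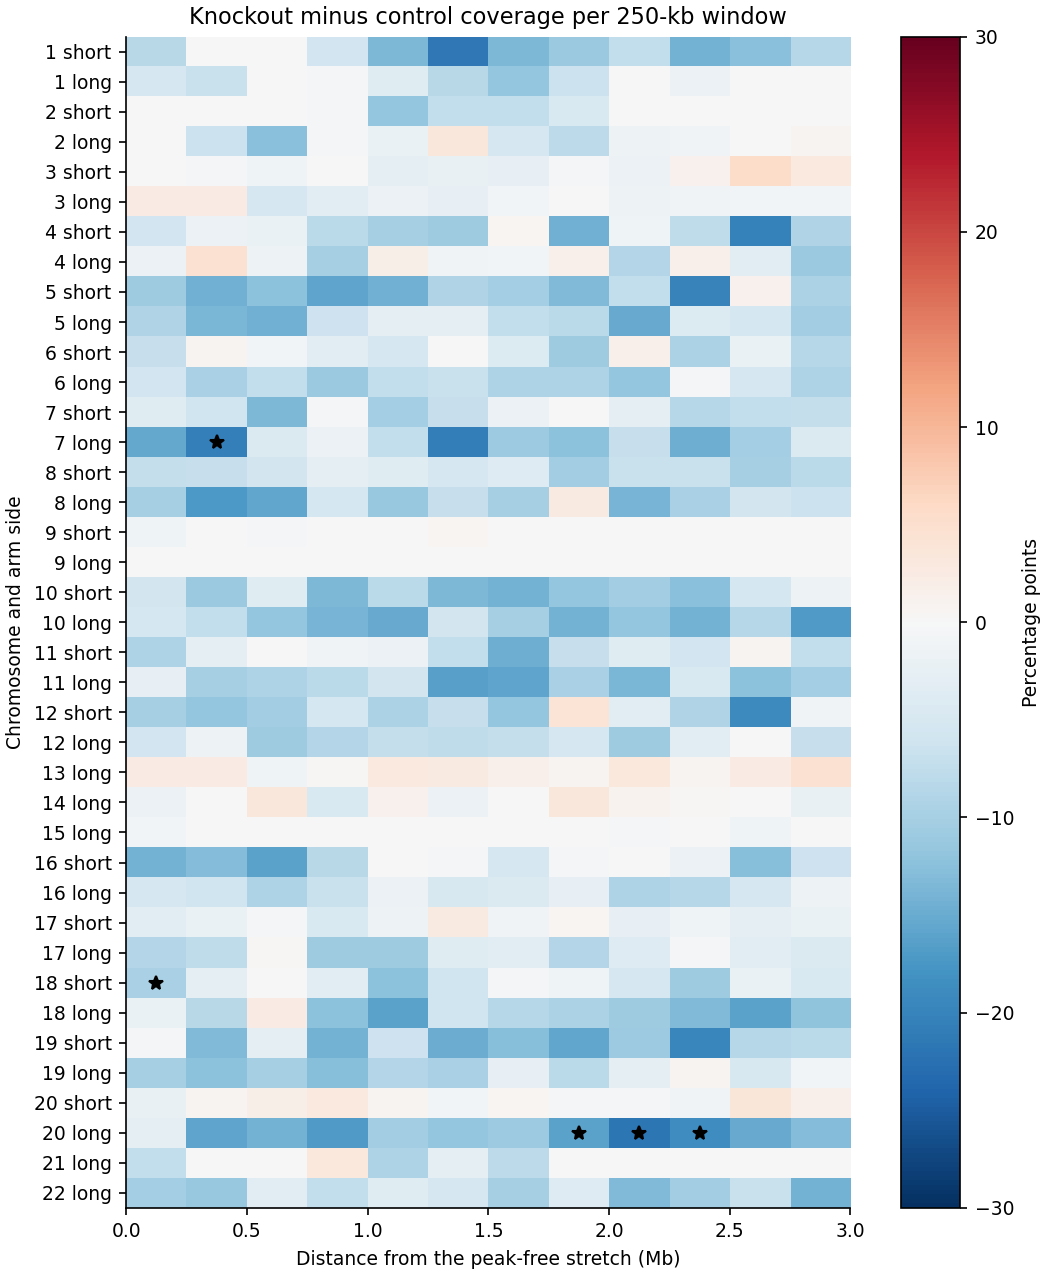
Difference in percent of bases under peaks, knockout mean minus control mean, in 12 windows of 250 kb for each of 39 sides, in percentage points (blue, lower in knockouts). Stars mark the 5 windows past the threshold, 3 of them on the long arm of chromosome 20, whose windows were lower in the knockouts at all 12 distances.

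**Figure D5:**
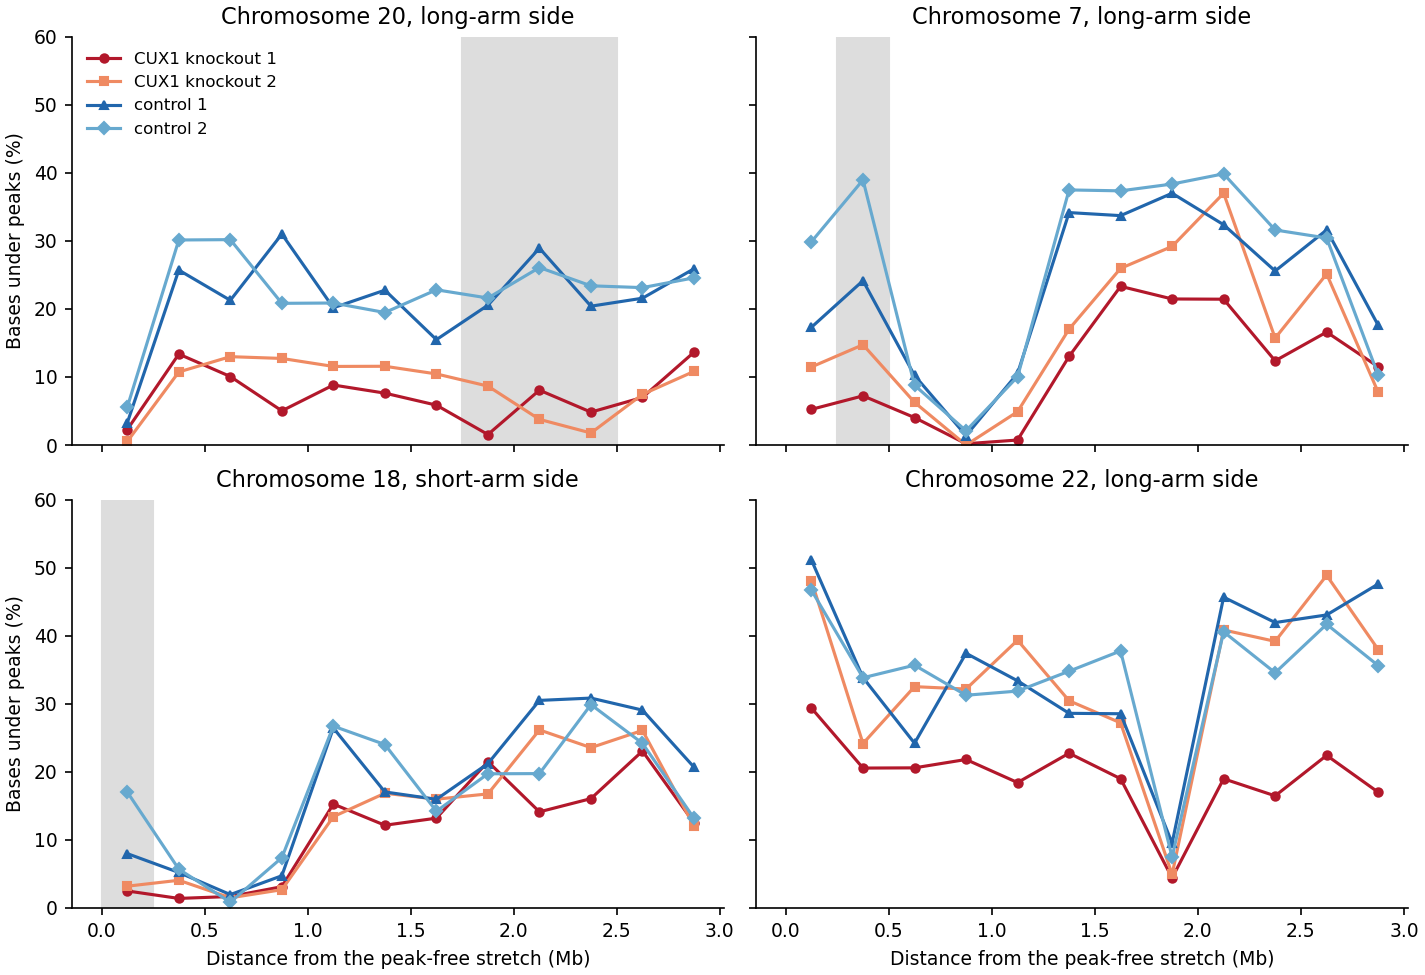
Percent of bases under peaks by distance from the gap in 4 flanks, 1 line per library, with the windows past the threshold shaded grey. On the long arm of chromosome 20 the knockouts lie below the controls at all 12 distances, and on the long arm of chromosome 22 knockout 1 lies below both controls at all 12 distances, while knockout 2 lies above, between or below them.

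The segments were also read on a scale that takes out the different covered length of the lists, as log2 of percent covered plus 0.5 relative to the median segment of the library. On this scale both knockouts lay below both controls in 11 of the 39 flank segments (28.2%) and above them in 7 (17.9%). Over all 874 segments the shares were 24.5% and 18.8%. No flank segment passed (limma, 0 calls of 39 and 0% of all segments in either direction). At an unadjusted p under 0.05 there were 4 flank segments, against 69 of all 874 segments. The median difference was 0.0059 over the flank segments.

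The largest negative differences were on the long arms of chromosomes 20 and 7 and the short arm of chromosome 11. The long-arm flank of chromosome 20 had relative log2 values of -1.18 and -1.48 in the knockouts and -0.38 and -0.35 in the controls, a difference of -0.97 (SE 0.13, limma adjusted p = 0.244). On the long arm of chromosome 7 the difference was -0.39 (SE 0.092, limma adjusted p = 0.523), with flank coverage of 11.4% and 16.3% in the knockouts and 22.97% and 26.3% in the controls. On the short arm of chromosome 11 it was -0.34 (limma adjusted p = 0.583). The largest positive differences were 0.998 on chromosome 13, 0.63 on the short arm of chromosome 20 and 0.46 on the long arm of chromosome 9 (limma adjusted p = 0.625, 0.625 and 0.640). The flank of chromosome 13 (19233697 to 22233696) had 7.24% and 5.12% under peaks in the knockouts and 5.84% and 2.67% in the controls, so the groups overlapped, and the long-arm flank of chromosome 9 is the one with at most 2 peaks in a library.

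As a ratio to the outer region of the same side (log2, 0.5 added to both percentages), 0 of the 39 sides passed in either direction, or 0% (limma), with 5 at an unadjusted p under 0.05. Both knockouts lay below both controls on 9 sides (23.1%) and above them on 8 (20.5%). The long arm of chromosome 20 was among the 8. Its flank was 1.01 and 1.07 times as dense as its outer region in the knockouts and 0.797 and 0.843 times in the controls.

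Libraries shared flank sequence about as much as sequence farther out. The Jaccard index of a pair of libraries divides the bases under peaks in both by the bases under peaks in at least 1. It was 0.159 for the knockouts and 0.228 for the controls in the flanks, and 0.152 for the knockouts and 0.220 for the controls at 5 to 15 Mb. For the 4 pairs of a knockout with a control it lay between 0.159 and 0.220 in the flanks. Both knockouts covered 4.68 Mb of flank in common and both controls 8.72 Mb. The index and the shared length both rise with the length covered, which was lower in the knockouts. No difference in sharing between the groups is read from them. All 4 libraries covered 1.17 Mb of flank, or 1.00%, against 1.08% at 5 to 15 Mb.

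Strong peaks by the authors' own measure were few, in the flanks as on all autosomes. A q of 0.05 was reached by 1 and 17 flank peaks in the knockouts and by 2 and 9 in the controls, at 23 places in all. Over all autosomes it was reached by 6 and 453 peaks in the knockouts and by 14 and 308 in the controls, so nothing particular to the flanks is read from these counts. There were 7 such places on chromosome 22, all on its only side, and 5 on chromosome 17. The 7 on chromosome 22 reached q of 0.05 only in knockout replicate 2 or control replicate 2. At 18 of the 23 places all 4 libraries listed a peak. The same shares over all autosomes were not counted, so nothing particular to these flanks is read from them either. The place that reached q of 0.05 in most libraries, 3 of 4, was on the long arm of chromosome 16 (47538317 to 47539269), 1.04 Mb from the gap. There the authors' fold was 3.36 and 2.93 in the knockouts and 2.20 and 4.98 in the controls, and −log10 q was 1.49 and 1.60 in the knockouts and 0.330 and 6.89 in the controls. The peak ended at 47539269 in knockout replicate 2 and at 47539267 in the other libraries.

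The widest flank peaks were 16933 and 18395 bp in the knockouts and 18911 and 21638 bp in the controls. In knockout replicate 1 it was on the short arm of chromosome 1 (118553897 to 118570829), and it was also the widest peak of that library on the autosomes. Knockout replicate 2 and control replicate 1 had theirs on the short arm of chromosome 19, from 23722067 to 23740461 and from 22705822 to 22724732, on the side with the zinc finger genes named above. Control replicate 2 had its widest on the long arm of chromosome 10, from 44700198 to 44721835. All 4 were weak in height, with an authors' fold of 1.82 and 1.80 in the knockouts and 1.73 and 1.62 in the controls.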

How the data were processed

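The submitters' processing notes name the build hg19 and, without settings, MACS2 2.1.0, BWA 0.7.17, deepTools 3.5.1 and SAMtools 1.16.1. Whether peaks were called against a background library is not stated. For every library the authors deposited a broad-peak list, with a score (10 times −log10 p, cut to a whole number), a fold (ratio over local background) and −log10 of p and q. These deposited values only described, ranked or filtered peaks.

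Percent covered was computed from merged peaks (Python 3.11.15), with peaks assigned by midpoint. Positions are hg19, counted from 1. Windows of 250 kb and segments of 3 Mb were tiled outward from the gap ends, and only full ones were used. Windows with a mean of at least 1% entered limma 3.58.1 in R 4.3.3, with a mean-variance trend and a Benjamini-Hochberg threshold of 0.05. Segments and side ratios were tested without a trend, with a pseudocount of 0.5. The tests were tried on simulated data. With a set change of 20, 63 of 100 changed windows were recovered, with 6 false calls. With a set change of 1, 21 of 30 segments were recovered with 0 false calls, and 3 of 3 sides with 1 false call. Smaller changes were not simulated. The median difference was -6.21 points over tested flank windows and 0.0059 over flank segments, so recovery of changes that small is unknown. The windows named were the 5 per direction with the largest change past the threshold and groups that did not overlap. Flanks were named for the 4 highest and 4 lowest coverages and ratios and the 3 largest segment differences per direction. Gene symbols came from RefSeq's GRCh38 annotation, by order from its longest gene-free stretch, without uncharacterised LOC entries. The family limit of 4 in 10, the split into 14 and 25 sides, the strong peaks, the widest peaks, the flanks of chromosomes 11 and 19, and the chromosome 22 window were picked with their values in view. The members and lists were chosen with earlier results of these data known.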

Additional observations from a re-analysis of the deposited data

How the results depend on the processing

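The difference in flank coverage, -5.51 points in the whole lists, was reversed with 1 limit on −log10 p (2.42 points) and with 1 limit on −log10 q (2.82 points). The limit on −log10 p was the lowest value of knockout replicate 1, so it took no peak from that library. With the limit on −log10 q the groups overlapped, at 8.43% and 11.5% in the knockouts and 4.01% and 10.3% in the controls. Leaving out 1 library gave -7.75 to -3.27 points for coverage, -0.0370 to -0.0059 for the flank to outer ratio, -1035.75 to -492.75 bp for flank width and -0.0159 to -0.0035 for the width ratio. These kept their direction in the other settings run, chromosomes 20 and 21 left out included, 2 settings added after the data were seen. Flank coverage differed by only -0.284 points at equal covered length, and the groups overlapped (exact permutation p = 0.667, n = 2 each). It was 12.3% and 12.1% in the knockouts and 12.2% and 12.8% in the controls. At equal covered length both knockouts lay below both controls in the flank to outer ratio, at 0.819 and 0.845 in the knockouts and 0.850 and 0.8998 in the controls. The width ratios were separated in the same direction with 1 limit on −log10 p, at equal covered length, against 10 to 20 Mb and without chromosome 20. The 5 calls among flank windows were 0 with either limit, at equal covered length, after quantile normalization and without the filter on low windows, and 0 to 119 with 1 library left out. The highest of these numbers came without knockout replicate 2. In that setting the median difference was -9.51 points over tested flank windows and -10.2 points over all tested windows. The difference was thus no larger in the flanks than over all windows. The cause of these changes in number was not tested. With the replicate number as a block 16 flank windows passed, of 238 among all 10518 windows. In the same setting 3 flank segments passed (chromosome 13 and both arms of chromosome 20), of 33 among all 874. Same-numbered libraries correlated at 0.0913 in their deviations, so the numbers were not taken as pairs. Yet in the whole lists peaks at q of 0.05 numbered 9 in knockout replicate 1 and 17 in control replicate 1. In knockout replicate 2 and control replicate 2 they numbered 460 and 312. Whether same-numbered libraries were handled together was not tested. With 1 limit on −log10 p or at equal covered length 1 side ratio passed, the long arm of chromosome 9, which holds at most 2 peaks. Its segment difference reversed with 1 limit on −log10 p (-0.32) or q (-0.64), at equal covered length (-0.013) and with peak-free stretches left out (-0.54), and that of the short arm of chromosome 11 with the limit on −log10 p (0.027). Segment and side calls were 0 with any 1 library left out. Depth is unknown, and 2 libraries a group cannot reach p under 0.3333 in an exact test.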
